A study of Mus musculus with 2 samples.

Results

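The genes described here are the 8 mouse loci of the muscle microRNAs: Mir206 and Mir133b, known from skeletal muscle; Mir208b and Mir499, which lie inside myosin heavy chain genes; and the multi-copy genes Mir1a-1, Mir1a-2, Mir133a-1 and Mir133a-2, shared by heart and skeletal muscle. They were chosen by name from the GENCODE annotation, out of 1973 miRNA genes counted. Of the 8, 7 were found among the counted genes, and Mir1a-2 is not analysed here. The tissue was liver of B6NCrl embryos at 12.5 days, healthy and with no treatment, males and females together. A single group of 2 libraries of short RNA was measured: replicate 2, from a pool of 88 embryos, and replicate 1, from a pool of 120 embryos. The labels number the pools as biological replicates 2 and 1. Both pools also carry the same donor identifier in the labels. The spread between them may in part be technical, which was not tested. With pooled embryos and no second tissue, age or treatment, the comparisons are between 2 libraries, not between conditions.

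MicroRNAs are short RNAs cut from hairpin precursors. They guide Argonaute proteins to messenger RNAs, mainly by pairing through the seed, bases 2 to 8 counted from the 5′ end, and so lower the output of those messages. The muscle miRNAs, often called myomiRs, are made during the differentiation of heart and skeletal muscle, where miR-1 and miR-206 promote differentiation and miR-133 influences myoblast proliferation. Those within myosin genes are made from the introns of their hosts: miR-208a from Myh6, miR-208b from Myh7 and miR-499 from Myh7b. Myh7 encodes the slow beta myosin heavy chain of the heart and of slow skeletal fibres, Myh6 the alpha heavy chain of the heart, and Myh7b a related heavy chain. These miRNAs are best known from muscle rather than liver. The skeletal genes were set against the myosin-hosted ones in each pool. As Myh7 is also made in slow skeletal fibres, this does not separate skeletal muscle from heart. Which cells or adjoining tissue the reads came from was not tested.

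The mature sequences below show which members can be told apart by their reads, with the seed in capitals. They are given 5′ to 3′ from RefSeq on GRCm38.p6, and miR-208a-3p is added as the closest relative of miR-208b-3p.
miR-206-3p: uGGAAUGUaaggaagugugugg
miR-133b-3p: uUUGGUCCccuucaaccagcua
miR-208b-3p: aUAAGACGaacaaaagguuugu
miR-208a-3p: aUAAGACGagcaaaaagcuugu
miR-499-5p: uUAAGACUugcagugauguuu
miR-208b-3p and miR-208a-3p share the seed UAAGACG and differ at 3 of 22 bases, written from miR-208a-3p to miR-208b-3p as G10A, A16G and C18U. miR-499-5p has the seed UAAGACU, which is the same as far as base 7.

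Each count in the deposited tables belongs to a whole hairpin, not to an arm. The hairpins of the 4 members with reads are shown with both annotated mature arms in capitals, since a read from either arm adds to the same count.
Mir206 hairpin: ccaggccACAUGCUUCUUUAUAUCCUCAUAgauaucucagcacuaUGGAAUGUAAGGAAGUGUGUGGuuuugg
Mir133b hairpin: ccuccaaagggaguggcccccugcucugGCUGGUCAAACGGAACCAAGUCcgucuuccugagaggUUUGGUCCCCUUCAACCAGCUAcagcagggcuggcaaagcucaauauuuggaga
Mir208b hairpin: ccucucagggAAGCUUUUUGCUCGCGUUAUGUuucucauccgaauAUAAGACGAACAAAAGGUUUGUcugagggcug
Mir499 hairpin: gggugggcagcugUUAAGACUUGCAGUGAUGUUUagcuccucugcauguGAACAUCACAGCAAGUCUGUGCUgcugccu
In mm10 coordinates, Mir206 (ENSMUSG00000065559.1) spans chr1:20679010-20679082 and Mir133b (ENSMUSG00000065480.1) spans chr1:20682769-20682887, both on the plus strand. They lie 3686 bases apart, each overlapping an exon of the long noncoding RNA Gm28653. Mir208b (ENSMUSG00000077928.1) spans chr14:54975700-54975776 on the minus strand in an intron of Myh7. Mir499 (ENSMUSG00000076312.1) spans chr2:155622880-155622958 on the plus strand in an intron of Myh7b.

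Against 2202 miRNA hairpins of GENCODE M21, every annotated mature sequence of Mir206, Mir133b, Mir208b, Mir208a and Mir499 occurred whole in its own hairpin alone. The 3p sequence of Mir133b was the closest to a second locus, because its first 21 of 22 bases also stand in the hairpins of Mir133a-1 and Mir133a-2. The longest run that Mir206 shared with another hairpin had 13 bases, with Mir1a-1 and Mir1a-2, which also carry its seed GGAAUGU. Mir208b and Mir499 shared at most 11 and 12 bases with another hairpin. The search covered annotated hairpins, not the whole genome.

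Uniquely aligned reads of muscle miRNA genes were found in both liver libraries, from 4 of the genes. The 7 measured genes held 2393 of 3534816 sense counts (0.0677%) in replicate 2 and 1450 of 3447858 (0.0421%) in replicate 1. Levels are given in CPM, counts per 1000000 sense counts on miRNA genes. They are not divided by length, since a read covers most of a mature miRNA, and the efficiency of capture of each miRNA is unknown. Mir122, the miRNA that defines hepatocytes, stood at 47128 CPM in replicate 2 and 60913 CPM in replicate 1, so the labelled tissue carried its defining marker. Per 1000 counts of Mir122, the muscle genes together had 14.4 counts in replicate 2 and 6.90 in replicate 1. Intervals cover counting error only, as the reads carry no molecular identifiers.

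Mir206, the skeletal muscle miRNA that shares its seed with miR-1, had 1019 counts in replicate 2 and 444 in replicate 1. Its level was 288 CPM (exact Poisson 95% interval 271 to 307) in replicate 2 and 129 CPM (117 to 141) in replicate 1, with a mean of 209 ± 113 CPM (SD, n = 2). The level in replicate 2 lay above that in replicate 1, and the counting intervals did not overlap. Mir206 ranked 174 of 1973 genes by mean level.

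Mir133b, made from the same locus as Mir206, had 19 counts in replicate 2 and 8 in replicate 1. Its level was 5.38 CPM (3.24 to 8.39) in replicate 2 and 2.32 CPM (1.00 to 4.57) in replicate 1, with a mean of 3.85 ± 2.16 CPM (SD, n = 2). These intervals overlapped. Mir206 exceeded Mir133b by 53.6 times in replicate 2 (exact interval 34.2 to 89.5) and by 55.5 times in replicate 1 (27.9 to 129). The ratio between libraries was 0.966, with an interval of 0.363 to 2.33 that allows a change of over 2-fold either way at these counts of Mir133b. As the first 21 bases of its 3p sequence are shared with the Mir133a genes, a 3p read that lacks its last base fits several places, and the Mir133b count can be too low.

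Mir499, made from the Myh7b intron, had the highest mean level of the 4 members with unique reads. It had 998 counts, or 282 CPM (265 to 300.4), in replicate 2 and 863 counts, or 250.3 CPM (234 to 268), in replicate 1. The mean was 266 ± 22.7 CPM (SD, n = 2), which ranked 158. The levels lay close together, with a coefficient of variation of 8.51%, against 54.1% for Mir206.

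Mir208b, made from the Myh7 intron, had 357 counts, or 101 CPM (90.8 to 112), in replicate 2 and 135 counts, or 39.2 CPM (32.8 to 46.3), in replicate 1. The mean was 70.1 ± 43.7 CPM (SD, n = 2), which ranked 223, and its coefficient of variation of 62.4% was the highest of the 4 members with reads. Its intervals did not overlap. Among these 4, the order by mean level was Mir499, Mir206, Mir208b and Mir133b. Mir499 and Mir206 did not differ beyond their spread, and their order changed: in replicate 2 their intervals overlapped with Mir206 slightly higher, and in replicate 1 Mir499 was higher with no overlap.

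**Figure D1:**
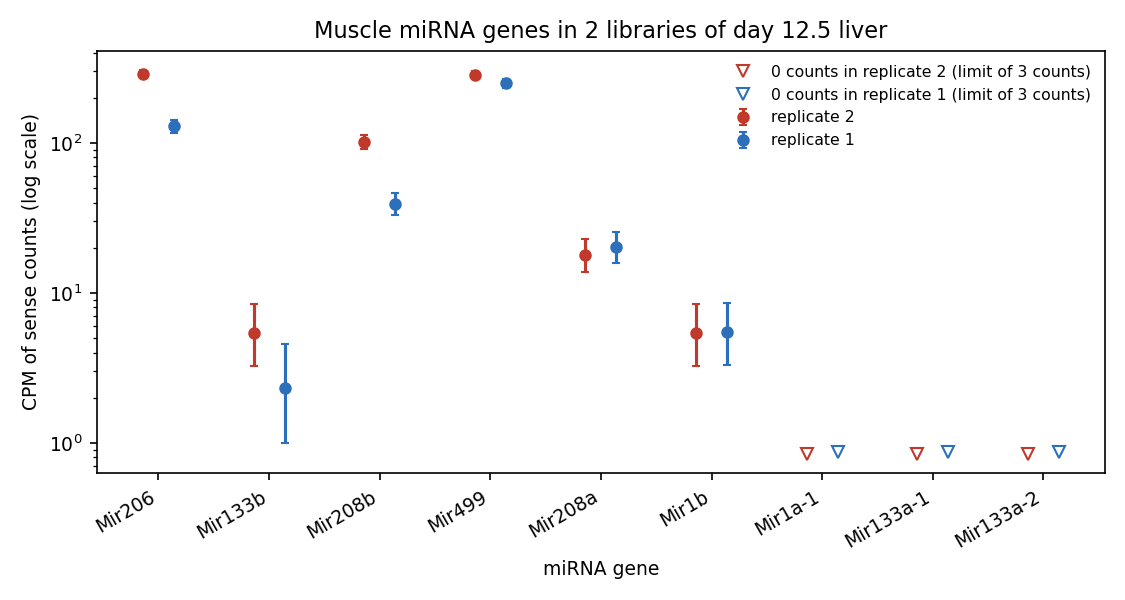
CPM of sense counts (log axis) for 6 muscle miRNA genes with reads and 3 without, in replicate 2 (red) and replicate 1 (blue). Bars are exact Poisson 95% intervals, and open triangles mark the limit of 3 counts for genes with 0 counts. Mir206 and Mir208b lie apart between the libraries, while Mir499 and Mir208a lie close together.

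The multi-copy genes gave no uniquely aligned sense reads. Mir1a-1, Mir133a-1 and Mir133a-2 each had 0 of 3534816 sense counts in replicate 2 and 0 of 3447858 in replicate 1, so that unique reads could reach at most 0.849 CPM in replicate 2 and 0.870 CPM in replicate 1, taking a count of 0 as at most 3. Their hairpins share long runs with their own copies: 28 bases between Mir1a-1 and Mir1a-2, and 31 bases between Mir133a-1 and Mir133a-2, both longer than a mature miRNA. Reads that aligned to several places, 3427344 in replicate 2 and 3180324 in replicate 1, were counted on no gene. The 5p sequence of Mir1a-1, of 23 bases, stood whole in its own hairpin alone. At most its first 14 bases stand in another hairpin, that of Mir1a-2. Among annotated hairpins its reads would be unique, and the count of 0 applies to it. The sequences of miR-1a-3p and miR-133a were not available here, and whether they lie within the shared runs was not checked. The count of 0 is therefore not taken as a limit on their level. No comparison of these genes with the skeletal or myosin-hosted members could be made.

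Mir1a-2 has no count of its own, but its place lies opposite to Mir1b, which was counted. Mir1b had 19 sense counts in each library, at 5.38 CPM in replicate 2 and 5.51 CPM in replicate 1. The opposite strand of Mir1b, on which Mir1a-2 lies, had 0 counts in both libraries. Mir1a-2 shares a run of 28 bases with Mir1a-1, and reads within that run would be counted on no gene. This 0 is therefore not taken as a limit on the level of Mir1a-2. The opposite-strand counts of all 7 measured members were also 0.

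Among the members, Mir208b and Mir206 were more than 2-fold higher in replicate 2 with intervals well above 0. Log2 ratios are replicate 2 over replicate 1 with 0.5 counts added, on library sizes scaled by TMM, a trimmed mean of ratios over genes. This scaling puts ratios 0.05 higher on the log2 scale than total counts do. Mir208b had a log2 ratio of 1.42 (exact Clopper-Pearson 95% interval 1.13 to 1.72), or 2.67-fold higher in replicate 2. Mir206 had 1.22 (1.06 to 1.38), or 2.32-fold higher. Mir499 had 0.23 (0.10 to 0.36), or 1.17-fold higher. Mir133b had 1.22 with a wide interval of 0.01 to 2.67.

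By a two-sided exact binomial test with Benjamini-Hochberg adjustment over 464 genes with at least 10 counts, Mir206 (adjusted p = 1.23e-52), Mir208b (adjusted p = 6.40e-24) and Mir499 (adjusted p = 0.00205) were higher in replicate 2, and Mir133b (adjusted p = 0.0824) did not pass. Among all tested genes 22.0% were called higher by this test. It allows for counting error only, with 1 library on each side and no replicate check. In edgeR's negative binomial test with the coefficient of variation estimated from both libraries, Mir208b (adjusted p = 0.0133) and Mir206 (adjusted p = 0.0416) passed and Mir499 (adjusted p = 1) did not, with 1.08% of the 464 genes called in either direction. That coefficient comes from the same 2 libraries that are compared, so this places genes against the spread of the other genes and is no test over replicates. At 1.5-fold or more, 3 of the 4 tested members (Mir206, Mir133b and Mir208b) lay higher in replicate 2, where 9.48% of all tested genes did. The median log2 ratio was 1.22 over these 4 genes and 0.02 over all 464. The remaining 4 of the 8 genes had no counts or were not analysed, so these figures describe only the members that could be tested. Mir206 and Mir133b come from the same locus, and the members were chosen with earlier results of these data known. The shares are therefore descriptive only.

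Of 289 genes with at least 100 counts, 4 (1.38%) were at least 2-fold higher in replicate 2 and 3 (1.04%) at least 2-fold lower. The lower ones were Gm26117 with a log2 ratio of -1.71, Mir6240 with -1.64 and Mir294 with -1.19. The higher ones were Mir451a, an erythroid miRNA, with a log2 ratio of 1.44, then Mir208b, then Mir204, hosted by Trpm3, with 1.28, and Mir206. The genes nearest to Mir208b by log2 ratio were Mir451a, Mir204 and Mir206, and those nearest to Mir206 were Mir204, Mir208b and Mir451a. Likeness here is the gap between log2 ratios over 2 libraries. Mir499 ranked 58 of the 289, with Mir17, Mir674 and Mir425 nearest to it.

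**Figure D2:**
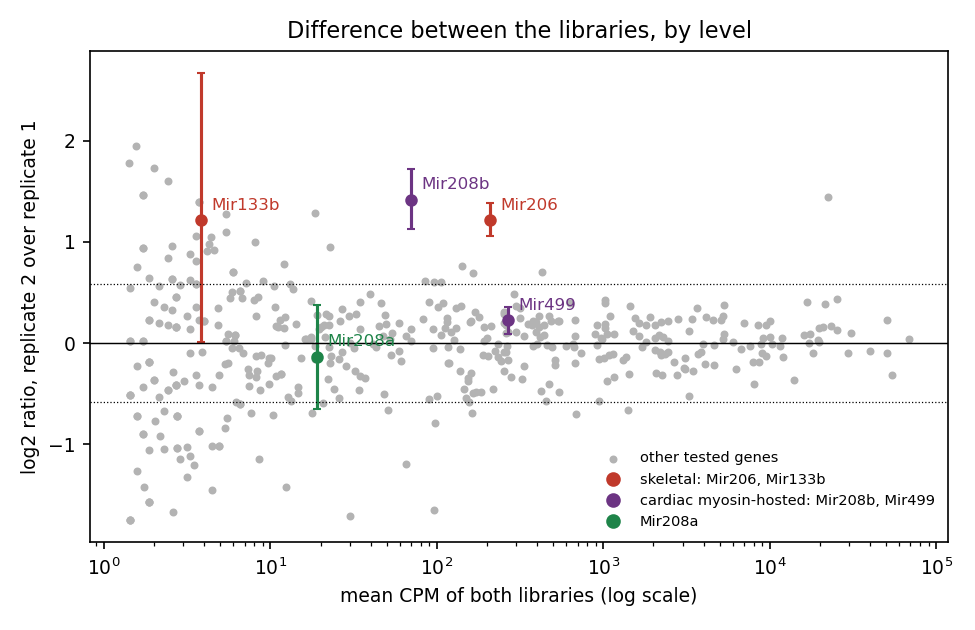
Log2 ratio of replicate 2 over replicate 1 against mean CPM (log axis) for 464 tested genes in grey, with the muscle genes in colour and their exact 95% intervals. Dotted lines mark 1.5-fold. Mir206 at 1.22 and Mir208b at 1.42 are 2 of the 4 genes with at least 100 counts that lie 2-fold or more above 0, while Mir499 lies at 0.23.

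The myosin-hosted genes did not move alike. Mir208a, the Myh6-hosted relative of Mir208b and no member of the group by its rule, lies 26557 bases from Mir208b on the same strand. It had 63 counts, or 17.8 CPM, in replicate 2 and 70 counts, or 20.3 CPM, in replicate 1. Its log2 ratio was -0.13 (-0.65 to 0.38; adjusted p = 0.752, exact binomial test), so a difference between the libraries was not detectable at this depth. The ratio of Mir208b to Mir208a was 5.67 in replicate 2 (4.32 to 7.53) and 1.93 in replicate 1 (1.43 to 2.61), a ratio between libraries of 2.94 (1.94 to 4.44). These ratios are within a library and do not depend on library size.

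Mir208b was also higher in replicate 2 relative to Mir499. The ratio of Mir208b to Mir499 was 0.358 in replicate 2 (0.316 to 0.404) and 0.156 in replicate 1 (0.129 to 0.188), or 2.29 times as high in replicate 2 (1.83 to 2.87). Mir499 against Mir208a was 15.8 in replicate 2 and 12.3 in replicate 1, and the interval of that change, 0.889 to 1.86, included 1. Mir208b was closer in its change to the skeletal Mir206: the ratio of Mir206 to Mir208b was 2.85 in replicate 2 (2.53 to 3.23) and 3.29 in replicate 1 (2.71 to 4.02), and its change of 0.868 (0.686 to 1.09) also included 1. An interval that includes 1 does not show that the genes changed equally.

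Summed by origin, the skeletal genes Mir206 and Mir133b held 294 CPM in replicate 2 and 131 CPM in replicate 1, a log2 ratio of 1.22 (1.06 to 1.38). The myosin-hosted genes Mir208b and Mir499 held 383 CPM in replicate 2 and 289 CPM in replicate 1, a log2 ratio of 0.46 (0.34 to 0.58). The ratio of skeletal to myosin-hosted counts was 0.766 in replicate 2 (0.706 to 0.831) and 0.453 in replicate 1 (0.404 to 0.507). It was 1.69 times as high in replicate 2 (1.47 to 1.95). This change rested on Mir499: with Mir208b alone as the myosin-hosted gene, Mir206 over Mir208b gave 0.868 (0.686 to 1.09), an interval that includes 1.

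**Figure D3:**
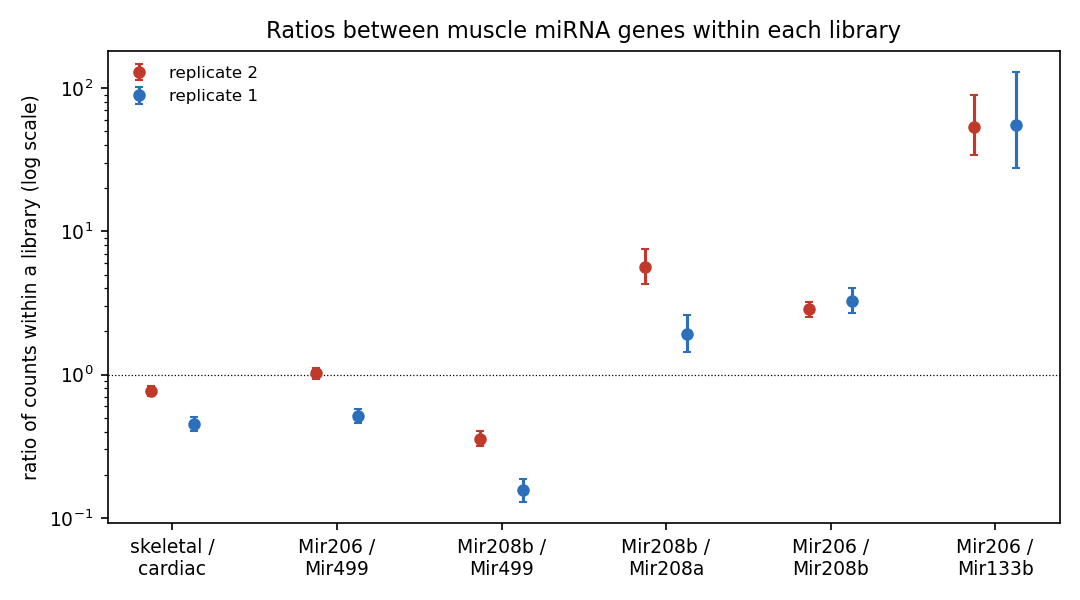
Ratios of counts between muscle miRNA genes within replicate 2 (red) and replicate 1 (blue), on a log axis, with exact 95% intervals. The ratios of Mir206 and of Mir208b to Mir499, and of Mir208b to Mir208a, are higher in replicate 2, while Mir206 to Mir208b and Mir206 to Mir133b have overlapping intervals.

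Of the 10 pairs among Mir206, Mir133b, Mir208b, Mir499 and Mir208a, 5 had an interval of the change between libraries that excluded 1. Each of these 5 pairs set Mir206, Mir133b or Mir208b against Mir499 or Mir208a. Mir133b over Mir499, with 27 counts of Mir133b in all, changed 2.05 times with an interval of 0.853 to 5.45. Within the members' own counts, Mir206 made up 42.6% in replicate 2 (40.6% to 44.6%) and 30.6% in replicate 1 (28.3% to 33.1%). Mir208b made up 14.9% in replicate 2 and 9.31% in replicate 1, and Mir499 41.7% in replicate 2 and 59.5% in replicate 1.

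None of the 3 other muscle miRNA genes tested was called higher in replicate 2, where 22.0% of all tested genes were. Mir486, which is made from the Ank1 gene in muscle and in red cells, stood at 892 CPM in replicate 2 and 1204 CPM in replicate 1, a log2 ratio of -0.38 (adjusted p = 7.70e-28, exact binomial test). It overlaps Mir3107 on the other strand, which is not analysed here. Mir133c had 0 counts in both libraries. Of these other muscle genes, 4 of 5 were measured and 3 had enough counts to test, namely Mir208a, Mir1b and Mir486. Of the 3, 0 were called higher and 1 lower by the exact binomial test, where 22.0% and 18.3% of all tested genes were.

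Markers of other tissues moved between the same libraries, in both directions. The smooth muscle and mesenchyme genes summed to 25822 CPM in replicate 2 and 23825 CPM in replicate 1, and 5 of the 6 measured passed the exact binomial test as higher, where 22.0% of all tested genes did, among them Mir145a (274 CPM in replicate 2, 230.0 CPM in replicate 1) and Mir143 (20332 CPM in replicate 2, 19037 CPM in replicate 1). The sixth, Mir199a-1, had 3.11 CPM in replicate 2 and 6.67 CPM in replicate 1, a log2 ratio of -1.01 that did not pass (adjusted p = 0.127, exact binomial test). The median log2 ratio of the 6 was 0.27, against 1.22 for Mir206. The erythroid sum was 37430 CPM in replicate 2 and 16926 CPM in replicate 1, a log2 ratio of 1.20, mostly by Mir451a. In this list 2 of 3 genes were called higher and 1 lower, where 22.0% and 18.3% of all tested genes were. Epithelial miR-200 genes summed to 2116 CPM in replicate 2 and 3409 CPM in replicate 1. Of these, 5 of 5 were called lower, against 18.3% of all tested genes. Mir122 was lower in replicate 2 with a log2 ratio of -0.32, and Mir223, a myeloid miRNA, with -0.26. The pancreas genes had 2 of 4 called lower, against the same 18.3%. Mir126a of the endothelium was called higher with a log2 ratio of 0.04 on TMM-scaled sizes. Its CPM was lower in replicate 2 (68164.5) than in replicate 1 (68816.3), so its direction depends on the scaling. Of 5 neural genes with at least 10 counts, 0 were called in either direction, where 22.0% of all tested genes were called higher and 18.3% lower. The Mir124a genes, which define neurons and are themselves multi-copy, had 0 counts in both libraries. The part that these other cells play in the muscle values was not tested. In such bulk tissue, fewer cells of a type and less RNA per cell cannot be told apart.

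**Figure D4:**
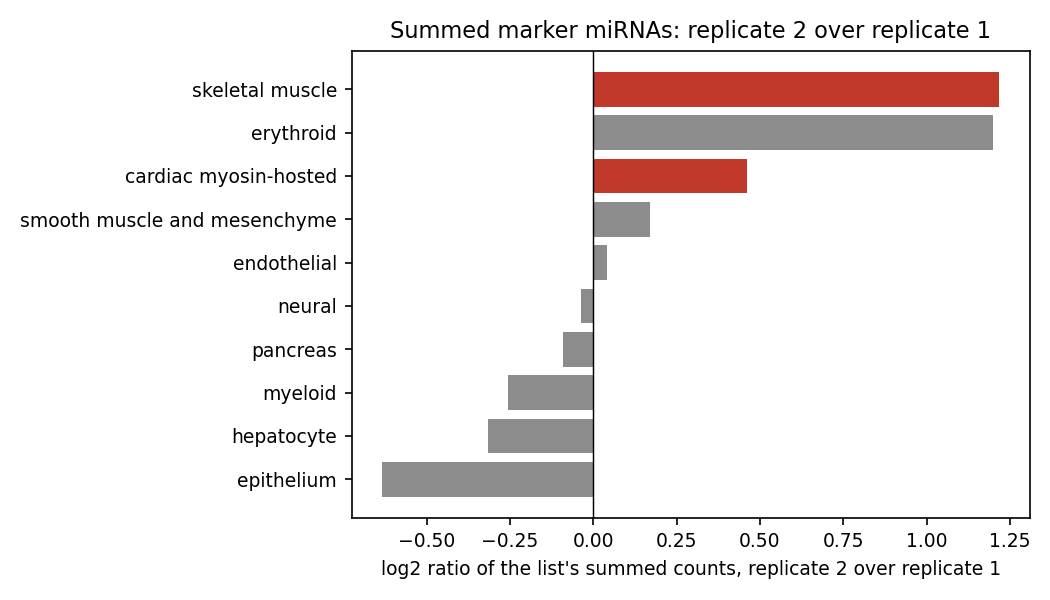
Log2 ratio of the summed counts of each list drawn, replicate 2 over replicate 1, on TMM-scaled library sizes, 1 value a list. The list of other muscle genes, at -0.37 and mostly made up of Mir486 counts, is not drawn, and the multi-copy genes have no value. Red bars are the skeletal and the myosin-hosted muscle genes, and grey bars are lists of other cell types. Skeletal muscle lies at 1.22, erythroid at 1.20, myosin-hosted at 0.46 and epithelium lowest at -0.63.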

How the data were processed

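Short RNA of 2 pooled liver samples was measured, 1 library each. The authors deposited raw read counts per miRNA gene for the sense strand, the opposite strand and both together, with mm10 as assembly and GENCODE M4 as annotation, per the files' own lists. Aligner and counter: not given in the sources used here. Reads of no gene were left out of library sizes: in replicate 2, 25.8% were unmapped, 31.1% aligned to several places and 11.0% lay on no listed gene, of 11013976 reads in all; in replicate 1 these were 29.4%, 28.8% and 10.6% of 11057424. Names and positions came from GENCODE M21, on the same assembly, where 1894 of 1973 identifiers were found.

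TMM factors and negative binomial tests came from edgeR 4.0.16, size factors from DESeq2 1.42.0 and exact tests from scipy 1.17.1. The binomial test was tried on simulated counts with Poisson spread only, which leaves out any spread beyond counting error. Genes were named by rule: all members, 5 other muscle genes and the 3 genes nearest in log2 ratio to each called member; marker genes and Mir451a given as examples were chosen after their values were seen. The members and lists were chosen with earlier results of these data known. A genome search for mature sequences was replaced by a search of annotated hairpins.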

Additional observations from a re-analysis of the deposited data

How the results depend on the processing

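Log2 ratios of Mir206, Mir208b and Mir499 kept their direction under every scaling, strand choice and added count tried. Of the binomial calls, Mir499 was lost in edgeR's negative binomial test, which allows for more than counting error, both with a coefficient of variation set to 0.1 (adjusted p = 0.782) and with the estimated 0.162 (adjusted p = 1), while Mir206 (adjusted p = 4.05e-06 and 0.0416) and Mir208b (2.46e-06 and 0.0133) passed both. The estimate is drawn from the same 2 libraries, so neither result is a test over replicates. Mir133b passed with Mir122 as library size (adjusted p = 0.0218). That scaling moved the log2 ratio to 1.53 for the skeletal sum, 0.78 for the myosin-hosted sum and 1.06 for all members. Over all genes, 102 were called higher and 85 lower, against 6 and 6 in the negative binomial test at 0.1 and 3 and 2 at the estimate. Of genes at least 1.5-fold apart there were 96, against 319 with no filter and 21 at 100 counts. With all reads as denominator the mean level was 67.6 per 1000000 for the skeletal sum, 107 for the myosin-hosted sum and 174 for all members, and per 1000 Mir122 counts it was 4.19, 6.44 and 10.6. Without 1 replicate these sums ranged from 131 to 294, 289 to 383 and 421 to 677 CPM. The mean skeletal to myosin-hosted ratio of 0.609 ranged from 0.453 to 0.766 without 1 replicate, was 3.07 for Mir206 over Mir208b, 0.0142 for Mir133b over Mir499 and 0.0562 without Mir206 and Mir499. Its change between libraries was 0.868 for Mir206 over Mir208b (0.686 to 1.09) and 0.898 for Mir133b over Mir208b (0.365 to 2.43), with intervals that include 1. It was 1.98 for Mir206 over Mir499 (1.71 to 2.30) and 2.05 for Mir133b over Mir499 (0.853 to 5.45). The interval of this last pair also includes 1. At 10 CPM in both libraries 3 members were detected. No paired analysis was possible because the labels give a single group, and no log2 ratio could be had without 1 replicate.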
